A study of Oryza sativa Indica Group with 36 samples.

Results

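The light receptors of rice leaves were followed through a single day in an OsPRR37 overexpression line and its parent: the phytochromes OsPHYA, OsPHYB and OsPHYC, the cryptochromes OsCRY1a, OsCRY1b and OsCRY2, and Se5, the heme oxygenase that makes the first intermediate of the phytochrome chromophore. These 7 genes were chosen by their locus identifiers, not by a cut on their values, out of 35477 loci in each library. Earlier results of these data were known when they were chosen. All 7 passed the filter on low counts. OsPRR37-OE5 (OE below) is a single line of the indica cultivar Guangluai4 that overexpresses OsPRR37, a clock protein of the pseudo-response regulator family. Guangluai4 itself (GL below) is the parent. In both, the top leaf that had fully expanded was taken from seedlings of 45 days grown in natural long days, every 4 h from 4:00 to 0:00, with 3 libraries of each genotype at each of the 6 hours, so 18 OE and 18 GL libraries. The promoter that drives the transgene is not given in the sources used here, and since 1 line was sampled, the transgene and anything else particular to that line cannot be told apart.

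Phytochromes are red and far-red receptors that carry a linear tetrapyrrole (a bilin) and switch between an inactive and an active form. Phytochrome A is degraded in light and serves far-red sensing, phytochrome B is the stable receptor of red light, and phytochrome C acts largely together with phytochrome B. Cryptochromes are flavin-binding receptors of blue light. In rice, loss of Se5 leaves the phytochromes short of chromophore and removes the delay of flowering by long days.

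The sequencing depth was 8065894 to 15769659 counts per library, with a median of 12531717. OsPRR37 (OS07G0695100) separated the genotypes at all 6 hours, with 800 to 1726 CPM (counts scaled by library depth) over OE libraries against 1.49 to 505 CPM over GL libraries. For GL replicate 3 at 0:00 the label of genotype gives the overexpression line, but its title places it in GL, where it was kept. Its OsPRR37 level was not used to place it, but goes with GL. At 0:00 this library had 3.81 CPM, beside 4.31 CPM in GL replicate 1 and 3.82 CPM in GL replicate 2. The OE range at that hour was 854 to 985 CPM. Leaf transcripts were abundant in both genotypes: the 3 leaf markers summed to between 6568 and 60715 FPKM (fragment counts per unit of transcript length and depth) in OE and between 7656 and 86646 FPKM in GL. One of them, the Rubisco activase OsRca, is listed at 0 in 4 OE and 5 GL libraries, so a listed 0 need not mean that a gene is silent. The shoot meristem markers OSH1 and OSH15 reached at most 0.769 FPKM in OE and 1.31 FPKM in GL, with OSH1 at 0 throughout. The 3 secondary wall cellulose synthases summed to between 0.694 and 8.41 FPKM in OE and between 0.894 and 5.46 FPKM in GL, and none of them passed the averaged test. One leaf marker, the light-harvesting gene OsLhcb1, was called lower in OE, with a log2 difference of -1.29 ± 0.20 (SE, adjusted p = 1.21e-05). The part of these markers in the results below was not tested. In leaf RNA, fewer cells of a type and less RNA per cell cannot be told apart.

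On a per-length scale the genes were ranked by their median over the libraries of all 6 hours. Se5 had the highest median level, with 165 FPKM over the 18 OE libraries and 271 FPKM over the 18 GL libraries. OsCRY1a, a receptor of blue light, was next with medians of 62.1 FPKM in OE and 70.9 FPKM in GL. OsPHYB followed with medians of 51.0 FPKM in OE and 44.2 FPKM in GL, and OsPHYC with 25.3 FPKM in OE and 27 FPKM in GL. OsPHYA and OsCRY2 lay close together: OsPHYA had medians of 16.5 FPKM in OE and 14 FPKM in GL, and OsCRY2 had 15 FPKM in OE and 17.8 FPKM in GL. The ranges of every pair of neighbours among these 6 genes overlapped in both genotypes, so the medians give an order over the day and not at each hour. At 20:00 Se5 averaged 36.4 FPKM in OE and 44.4 FPKM in GL. That was below OsPHYB, with 73.9 FPKM in OE and 61.0 FPKM in GL, and below OsCRY1a, with 52.8 FPKM in OE and 59.2 FPKM in GL. Within single libraries the order of the phytochromes was nearly fixed, since OsPHYB exceeded OsPHYC in 34 of 36 libraries and OsPHYA exceeded OsPHYB in 1 and OsPHYC in 1. Among the cryptochromes, OsCRY1a exceeded both others in 36 of 36 libraries.

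**Figure D1:**
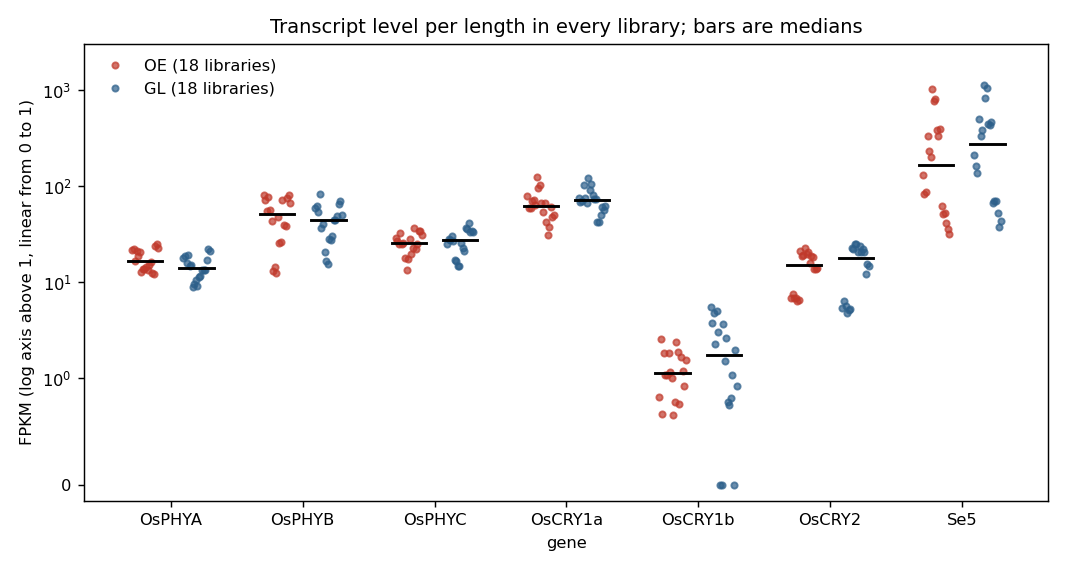
FPKM of each gene in every library (log axis above 1, linear from 0 to 1), with OE left of GL and the median of the 18 libraries as a bar. Se5 stands highest in both genotypes with medians of 165 FPKM in OE and 271 FPKM in GL, and OsCRY1a follows with medians of 62.1 FPKM in OE and 70.9 FPKM in GL.

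OsCRY1b was near the limit of detection. The locus listed under its identifier (OS04G0452100; IRGSP-1.0 chromosome 4, 22550302 to 22550841, plus strand) spans 540 bp, shorter than a cryptochrome coding sequence, so its values stand for that listed stretch alone. It collected 160 counts over all OE libraries and 218 counts over all GL libraries, and 3 GL libraries were listed at 0. Single libraries ran from 0.330 to 1.195 CPM in OE, with a median of 0.534 CPM, and from 0 to 2.57 CPM in GL, with a median of 0.822 CPM. Its differences are given below with that depth in mind, and no level is drawn from it.

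Each of the other 6 genes changed over the day in both genotypes, and each genotype kept nearly the same timetable. The change over the 6 hours was called (edgeR quasi-likelihood test, Benjamini-Hochberg adjusted p under 0.05) for 6 of 7 genes in OE and for 6 of 7 in GL, OsCRY1b being the exception in both. This is close to the leaf transcriptome as a whole, where 68.6% of the genes tested were called in OE and 69.7% in GL. The adjusted p of the 6 genes ran from 3.40e-16 for OsCRY2 to 4.17e-05 for OsPHYC in OE, and from 1.36e-18 for OsCRY2 to 1.69e-06 for OsCRY1a in GL. OsCRY1b had an adjusted p of 1 in OE and 0.0525 in GL, and leaving out any of 6 single GL libraries (replicates 1, 2 and 3 at 8:00, replicate 2 at 12:00, replicates 1 and 2 at 20:00) moved the GL value under the threshold, to between 2.25e-04 and 0.0490. In GL it was also called under 6 of 10 alternatives (DESeq2 and both limma fits on FPKM among them), with an adjusted p as low as 9.11e-04. Group levels below are in CPM scaled by TMM, a factor per library that evens out the bulk of the genes.

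The phytochromes were lowest at 8:00 and highest in the evening or late afternoon. OsPHYB (OS03G0309200; chromosome 3, 11019938 to 11028201, plus strand) had the widest range of the 3, and at its lowest hour, 8:00, averaged 43.9 ± 2.92 CPM in OE and 45.2 ± 8.11 CPM in GL (SD, n = 3 each). At 20:00 it averaged 269 ± 17.3 CPM in OE and 214 ± 32.8 CPM in GL, which is 6.14 times the 8:00 level in OE and 4.74 times in GL. OsPHYA (OS03G0719800; chromosome 3, 29168092 to 29176234, minus strand) was also lowest at 8:00 and highest at 20:00, with a highest over lowest ratio of 1.85 in OE and 2.14 in GL. Its 8:00 libraries overlapped those of 16:00 in OE and those of 12:00 in GL, and in GL the 20:00 and 0:00 libraries overlapped as well. OsPHYC (OS03G0752100; chromosome 3, 31004205 to 31014259, plus strand) peaked at 20:00 in OE with 134 ± 8.40 CPM and at 16:00 in GL with 150.5 ± 7.48 CPM, but in each genotype the libraries of 16:00 and 20:00 overlapped. Its highest over lowest ratio was 2.20 in OE and 2.54 in GL.

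The blue-light receptors ran on different timetables from the phytochromes and from each other. OsCRY1a (OS02G0573200; chromosome 2, 21976931 to 21980394, plus strand) was highest at 8:00 with 260 ± 35.9 CPM in OE and 258 ± 35.5 CPM in GL (SD, n = 3 each). It was lowest at 16:00 with 92.7 ± 13.4 CPM in OE and 111 ± 9.86 CPM in GL. OsCRY2 (OS02G0625000; chromosome 2, 24915297 to 24922132, plus strand) was highest at 12:00 and lowest at 4:00 in both genotypes. Its 12:00 mean was 63.0 ± 4.90 CPM in OE and 68.7 ± 5.89 CPM in GL, against 4:00 means of 18.2 ± 0.586 CPM in OE and 14.9 ± 1.14 CPM in GL.

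Se5 (OS06G0603000; chromosome 6, 23853850 to 23858278, minus strand) had by far the widest swing of the 7 genes, 23.1 times in OE and 21.1 times in GL between its highest and lowest hour. It reached 793 ± 147 CPM in OE and 906 ± 179 CPM in GL at 8:00, and was down at 34.4 ± 7.04 CPM in OE and 43.0 ± 11.2 CPM in GL at 20:00 (SD, n = 3 each). Se5 was thus at its highest hour when all 3 phytochrome transcripts were at their lowest. In OE no neighbouring hours in its order of levels overlapped, and in GL only 12:00 and 4:00 did.

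**Figure D2:**
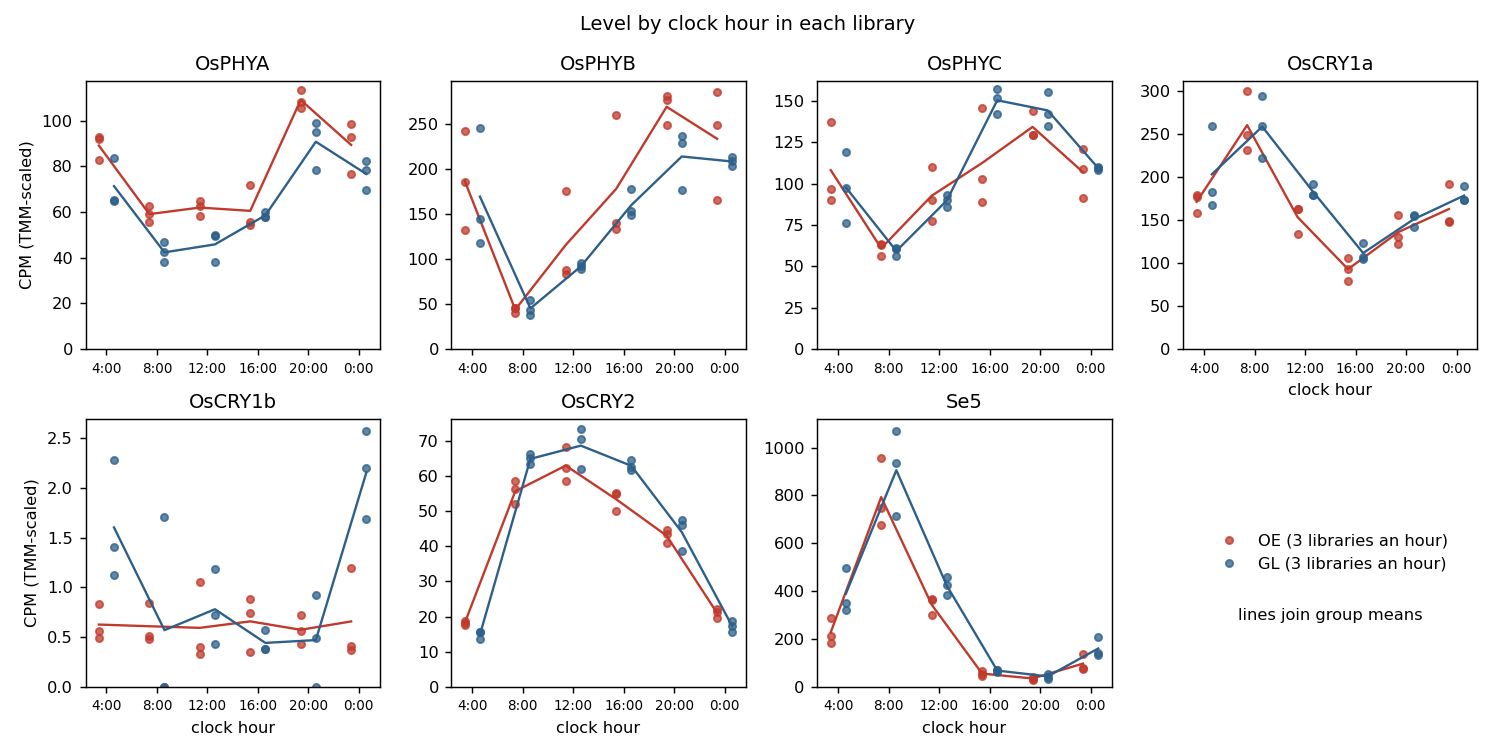
CPM of each gene in every library against clock hour, with OE left of GL at each hour and lines joining group means. The phytochromes dip at 8:00, where OsCRY1a and Se5 stand highest, and OsCRY2 stands highest at 12:00.

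**Figure D3:**
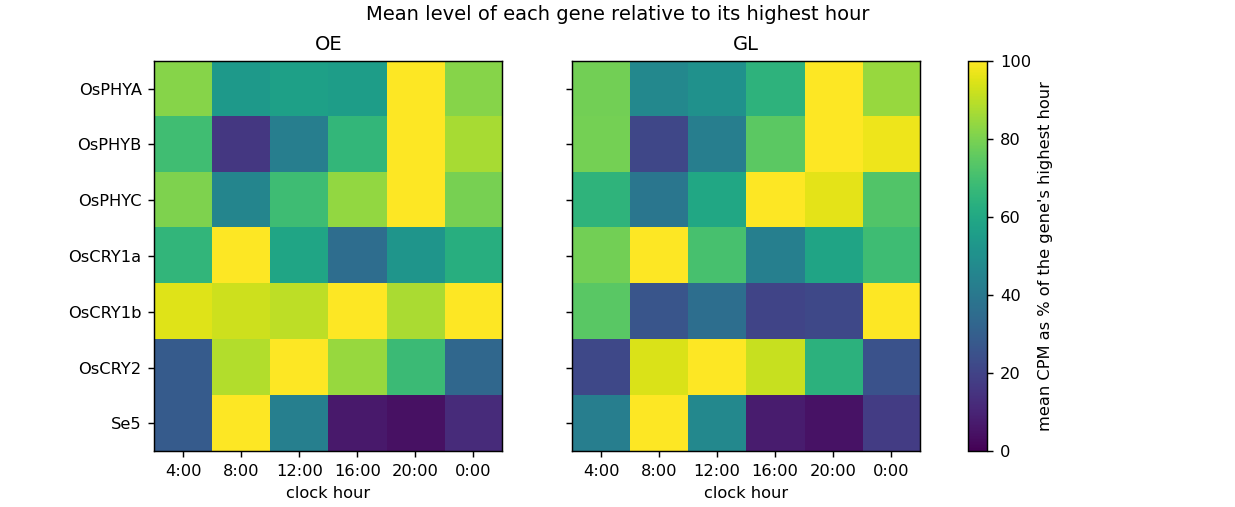
Mean CPM of each gene at each hour as a percentage of its own highest hour, OE at the left and GL at the right (n = 3 libraries a cell). OsPHYC is the only gene above the detection limit whose highest hour differs between the panels, 20:00 in OE and 16:00 in GL, and the libraries of these hours overlap in each genotype.

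The scaling matters for these day patterns. The TMM factors followed the hour, from between 0.657 and 0.793 at 8:00 to between 1.19 and 1.33 at 20:00. On library totals alone the lowest hour of each phytochrome was still 8:00 and the highest hour of Se5 was still 8:00. On that scale OsCRY2 was highest at 16:00 in both genotypes, OsCRY1a was highest at 8:00 in OE and at 0:00 in GL, and the OsPHYC maximum of GL stood at 20:00 as in OE. The swing of OsPHYB on library totals was 10.8 times in OE and 8.60 times in GL, and that of Se5 13.1 times in OE and 11.6 times in GL. That of OsPHYA was 3.22 times in OE and 3.92 times in GL, and that of OsPHYC 3.87 times in OE and 4.42 times in GL.

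A harmonic model with an assumed 24-h period placed the peaks of the 2 genotypes within about an hour of each other for each gene but OsCRY1b. OsPHYB peaked at 21.3 h in OE and 21.6 h in GL, with a fitted peak-to-trough range of 1.99 in OE and 1.90 in GL on the log2 scale. OsPHYA peaked at 23.1 h in OE and 22.3 h in GL with a range of 0.86 in OE and 1.07 in GL, and OsPHYC at 20.5 h in OE and 19.4 h in GL with a range of 0.82 in OE and 1.16 in GL. These last 2 ranges lie below the median over all tested genes, which was 1.16 in OE and 1.25 in GL. The range of OsCRY1a, 1.06 in OE and 0.94 in GL, lies below it too. Se5 peaked at 7.83 h in OE and 7.39 h in GL with a range of 4.34 in OE and 4.29 in GL. The cryptochrome peaks were at 5.86 h in OE and 6.00 h in GL for OsCRY1a, and at 13.4 h in OE and 13.3 h in GL for OsCRY2. A difference of rhythm between genotypes was called for 0 of 7 genes by edgeR, for 0 at an unadjusted p under 0.05 and for 0 by DESeq2; over all genes 0.0919% were called.

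Averaged over the day, OE leaves had more OsPHYA transcript and less Se5 and OsCRY1a transcript than GL leaves. These 3 of 7 genes passed the averaged test, 1 higher and 2 lower in OE, beside 26% of all tested genes, with 14% called higher and 12% lower. With so few genes and so high a background, the count by itself sets these genes apart from no others, and the median difference of the 7 genes, a log2 value of -0.05, lay near the median over all tested genes of -0.0028. At single hours 1 of the 7 genes was called, OsPHYA at 8:00, where 3.31% of all genes were called. At the other hours 0 were called by edgeR, beside 4.48% of all genes at 4:00, 2.02% at 12:00, 7.91% at 16:00, 2.51% at 20:00 and 2.33% at 0:00. An unadjusted p under 0.05 was reached by 3 genes at 4:00, by 1 at 12:00, by 2 at 16:00, by 1 at 20:00 and by 3 at 0:00. Of all 21772 genes tested, 3613 reached it at 4:00, 2770 at 12:00, 4830 at 16:00, 2686 at 20:00 and 2647 at 0:00. DESeq2 called Se5 at 4:00, OsPHYA at 12:00 and OsCRY2 at 16:00 and none at 20:00 or 0:00. Of 21742 genes, DESeq2 called 1388 at 4:00, 706 at 12:00, 2349 at 16:00, 891 at 20:00 and 766 at 0:00.

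OsPHYA was higher in OE by a log2 difference of 0.29 ± 0.05 (SE), or 1.23-fold, with an adjusted p of 9.96e-05, and its OE mean was the higher one at all 6 hours. At 4:00 it had 92.8, 82.7 and 91.9 CPM in OE against 83.9, 65.3 and 65.0 CPM in GL. At 8:00 the values were 55.7, 62.6 and 59.0 CPM in OE against 37.9, 42.4 and 46.7 CPM in GL. At 12:00 they were 62.5, 58.5 and 64.9 CPM in OE against 38.2, 49.8 and 49.5 CPM in GL. The 3 OE libraries stood above the 3 GL libraries at 8:00 and 12:00, while at 4:00 the highest GL library lay within the OE range. Later, at 16:00, OsPHYA had 71.9, 55.4 and 54.2 CPM in OE against 58.0, 59.8 and 57.9 CPM in GL. At 20:00 it had 108, 114 and 106 CPM in OE against 78.5, 98.9 and 95.0 CPM in GL. At 0:00 it had 92.7, 98.7 and 76.9 CPM in OE against 78.3, 82.2 and 69.5 CPM in GL. The groups were again apart at 20:00 and overlapped at 16:00 and 0:00, so OE lay wholly above GL at 3 of the 6 hours, where over all tested genes and hours 19.8% of comparisons were without overlap in either direction.

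By hour the OsPHYA difference ran from a log2 value of 0.05 ± 0.13 at 16:00 to 0.48 ± 0.13 at 8:00 (SE), the 8:00 value having an adjusted p of 0.0357 (edgeR). That single-hour call was lost on leaving out any 1 of the 6 libraries of 8:00, with adjusted p values between 0.0521 and 0.188, and it was not made under 5 of 11 alternatives, where the adjusted p was at most 0.0700. The averaged call was made on leaving out each of the 36 libraries in turn. Whether the difference changed over the hours did not pass the interaction test (adjusted p = 0.790). A locus of 312 bp on the other strand, OS03G0719700 (chromosome 3, 29170641 to 29170952), lies inside OsPHYA, and the kit does not mark strand. That locus had 1945 counts over the 36 libraries against 34748 counts for OsPHYA, and its own averaged difference was a log2 value of 0.31 ± 0.09 (SE, adjusted p = 0.00864), so it was called too. Its part in the OsPHYA result was not tested.

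The other phytochromes did not pass the averaged test. OsPHYB had a log2 difference of 0.18 ± 0.11 (SE; 95% interval -0.04 to 0.40) and an adjusted p of 0.260, with the higher mean in OE at 5 of 6 hours. Its log2 difference was largest at 12:00 and 20:00, 0.33 at each. At 20:00 it had 281, 277 and 249 CPM in OE against 237, 229 and 176 CPM in GL, and this was the only hour at which the genotypes were apart. OsPHYB was thus apart at 1 of 6 hours, beside 19.8% of comparisons without overlap over all genes and hours. Replicate 1 of OE stood above the mean of replicates 2 and 3 at 6 of 6 hours by an average log2 value of 0.54, against 0.13 in GL with 4 of 6 hours. With replicates 2 and 3 only, the OsPHYB difference was 0.02, and on library totals it was 0.26 with an adjusted p of 0.0309. OsPHYC had a log2 difference of -0.05 ± 0.07 (SE; 95% interval -0.19 to 0.08) with an adjusted p of 0.611.

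OsPHYC overlapped between genotypes at all 6 hours. At 16:00, where its difference was largest, it had 146, 89.0 and 103 CPM in OE against 142, 152 and 157 CPM in GL, a log2 difference of -0.42 ± 0.17 (SE) with an adjusted p of 0.123. Replicate 1 of OE lay among the GL libraries at that hour, and without it the difference was -0.65 with an adjusted p of 0.0112. With replicates 2 and 3 only, the averaged difference was -0.16 with an adjusted p of 0.0268. The span of OsPHYC overlaps that of OS03G0752300 on the other strand (chromosome 3, 31011040 to 31019641) by 3220 bp, introns included. Reads in exons that both share cannot be assigned to either, but the length of such exons was not determined. OS03G0752300 has a listed length of 2702 bp, and had 16236 counts over the 36 libraries against 50488 counts for OsPHYC. The averaged difference of that locus was a log2 value of -0.20 ± 0.11 (SE) with an adjusted p of 0.188.

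The share of OsPHYA among the phytochromes was higher in OE on average, but the genotypes were apart at 8:00 alone. OsPHYA made up 20.4% of the summed phytochrome FPKM in OE and 17.8% in GL, averaged over the hours, a difference of 2.64 percentage points (two-sided permutation test of the genotype within each hour, 100000 resamples, p = 0.00621, adjusted p = 0.0124 over the 2 shares examined). This test, used for both shares, took libraries of different hours as independent, even where they share genotype and replicate number. In OE, replicate 1 had the lowest OsPHYA share of its group at every hour but 20:00. In GL it had the lowest at every hour except 16:00 and 0:00. How far this offset bears on the p-value was not tested. The OE mean was the higher one at 6 of 6 hours, though at 0:00 it was 17.4% in OE against 17.1% in GL. The share was highest at 8:00, where it was 31.4 ± 1.97% in OE and 23 ± 3.21% in GL (SD, n = 3 each). It was lowest at 16:00, where it was 15.3 ± 1.97% in OE and 13.8 ± 0.770% in GL.

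**Figure D4:**
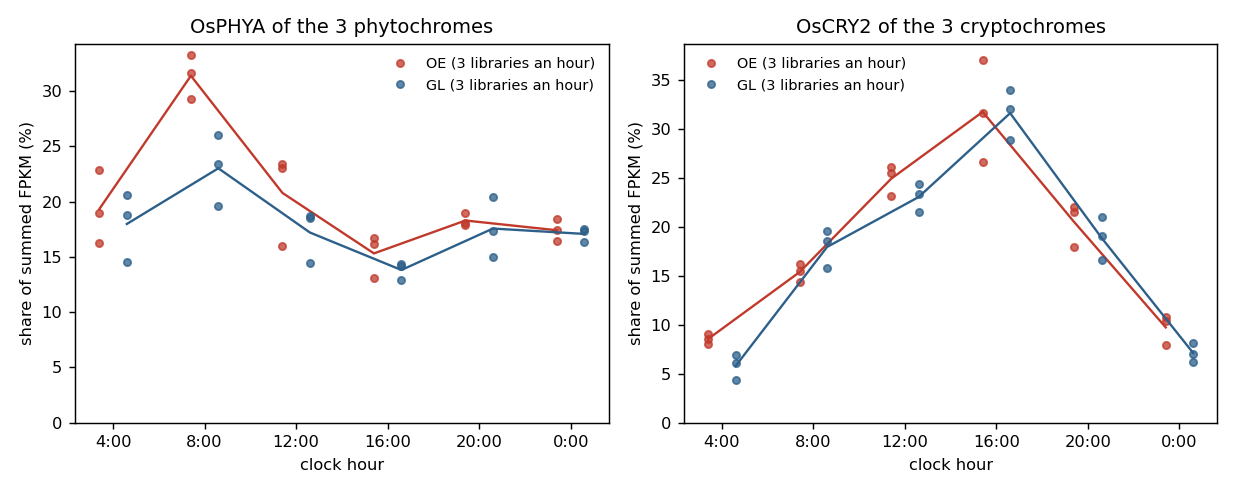
Share of OsPHYA in the summed FPKM of the 3 phytochromes, and of OsCRY2 in that of the 3 cryptochromes, in each library by clock hour, with OE left of GL and lines joining group means. The OsPHYA share averages 20.4% in OE and 17.8% in GL, with the widest gap at 8:00, and the OsCRY2 share is highest at 16:00 in both.

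Se5 was lower in OE by the widest margin of the called genes, with a log2 difference of -0.44 ± 0.10 (SE), or 0.74-fold, and an adjusted p of 0.00132. At 4:00 it had 288, 214 and 182 CPM in OE against 496, 322 and 349 CPM in GL. At 8:00 the values were 958, 675 and 745 CPM in OE against 1069, 714 and 934 CPM in GL. At 12:00 they were 366, 300 and 364 CPM in OE against 458, 384 and 427 CPM in GL. The genotypes were apart at 4:00 and 12:00 and overlapped at 8:00, the peak hour. In the falling phase, at 16:00, Se5 had 66.8, 46.0 and 51.7 CPM in OE against 71.7, 62.6 and 68.3 CPM in GL. At 20:00 it had 42.4, 31.5 and 29.2 CPM in OE against 55.0, 32.9 and 41.0 CPM in GL. At 0:00 it had 135, 75.8 and 78.9 CPM in OE against 208, 140 and 131 CPM in GL. These 3 hours overlapped, so OE lay wholly below GL at 2 of the 6 hours. Over all tested genes and hours 19.8% of comparisons were without overlap in either direction. The OE mean of Se5 was below the GL mean at all 6 hours.

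No single-hour difference of Se5 passed the main edgeR test, which has no term for replicate number. The single-hour differences were largest at 4:00, with a log2 value of -0.77 ± 0.24 (SE, adjusted p = 0.0618), and at 0:00, with -0.73 ± 0.24 (SE, adjusted p = 0.136). With a term for replicate number, edgeR called both (adjusted p = 1.58e-04 at 4:00 and 3.72e-04 at 0:00). In all, 7 of 11 alternatives called the 4:00 value and 6 of 11 the 0:00 value. Replicate 1 was the highest of its group in every Se5 group of both genotypes, by an average log2 value of 0.48 over replicates 2 and 3 in OE and 0.41 in GL. Without OE replicate 1 at 4:00 the 4:00 value was -0.97 with an adjusted p of 0.0298, without OE replicate 1 at 0:00 the 0:00 value was -1.08 with an adjusted p of 0.0150 and the 4:00 value passed with an adjusted p of 0.0427. With replicates 2 and 3 only, the averaged difference was -0.46 with an adjusted p of 1.55e-05. The averaged call was made on leaving out each library in turn.

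Among the cryptochromes, OsCRY1a was lower in OE by a small margin, a log2 difference of -0.17 ± 0.06 (SE), or 0.89-fold, with an adjusted p of 0.0346. Its OE mean was below the GL mean at 5 of 6 hours. The genotypes were apart at 12:00 alone, with 163, 134 and 162 CPM in OE against 191, 179 and 179 CPM in GL. OsCRY1a was thus apart at 1 of 6 hours, beside 19.8% of comparisons without overlap over all genes and hours. At 8:00, its highest hour, it had 300, 231 and 249 CPM in OE against 293, 222 and 259 CPM in GL, and the groups overlapped almost wholly. At its lowest hour, 16:00, it had 106, 79.0 and 93.4 CPM in OE against 107, 105 and 123 CPM in GL.

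This OsCRY1a call is a marginal one. On library totals the difference was -0.08 with an adjusted p of 0.217, and with a random block for each of the 6 sets of libraries that share genotype and replicate number it was -0.17 with an adjusted p of 0.168. Leaving out any of 10 single libraries also ended the call, with adjusted p values between 0.0516 and 0.0631. These were OE replicate 2 at 0:00, 12:00, 16:00 and 20:00, OE replicate 3 at 4:00, 20:00 and 0:00, GL replicate 1 at 4:00 and 0:00, and GL replicate 3 at 16:00. The difference was negative in each of these fits. OsCRY1a shares 20 bp at its end with OS02G0573300 on the other strand, whose averaged difference was a log2 value of 0.12 ± 0.06 (SE, adjusted p = 0.158).

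OsCRY2 did not pass the averaged test but passed the test of whether the OE over GL difference varied with the hour, as 1 of the 7 genes. Its averaged log2 difference was -0.01 ± 0.04 (SE; 95% interval -0.08 to 0.07, adjusted p = 0.937), and it was 0.09 on library totals, also not called. The genotype by hour interaction had an adjusted p of 0.0313, beside 1.88% of all tested genes called. OE was the higher group at 4:00 and 0:00. At 4:00 OsCRY2 had 18.3, 17.6 and 18.8 CPM in OE against 13.5, 15.5 and 15.5 CPM in GL. At 0:00 it had 19.6, 22.2 and 21.2 CPM in OE against 17.3, 18.7 and 15.7 CPM in GL. OE was the lower group at 8:00 and 16:00. At 8:00 OsCRY2 had 58.5, 52.1 and 56.5 CPM in OE against 65.2, 63.4 and 66.3 CPM in GL. At 16:00 it had 50.03, 55.0 and 55.2 CPM in OE against 64.5, 61.9 and 62.5 CPM in GL. The genotypes did not overlap at any of these 4 hours, 2 with OE above and 2 with OE below, beside the 19.8% of all comparisons given above.

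At 12:00 OsCRY2 had 68.3, 58.5 and 62.3 CPM in OE against 73.4, 62.1 and 70.6 CPM in GL. At 20:00 it had 44.8, 41.0 and 43.4 CPM in OE against 38.6, 47.6 and 46.1 CPM in GL. The genotypes overlapped at both hours. As log2 differences the hours ran from 0.29 ± 0.10 at 4:00 and 0.28 ± 0.10 at 0:00 to -0.22 ± 0.09 at 8:00 and -0.24 ± 0.09 at 16:00 (SE), and no single hour was called, the lowest adjusted p being 0.0836 at 4:00. The fitted range over the day was accordingly narrower in OE, 1.81 against 2.35 in GL on the log2 scale, although the rhythm test itself did not pass (adjusted p = 0.989).

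The OsCRY2 interaction was lost with no filter on low counts (adjusted p = 0.0744), with replicates 2 and 3 only (adjusted p = 0.0501), with GL replicate 3 at 0:00 grouped as OE (adjusted p = 0.235) and on library totals (adjusted p = 0.258). Grouping GL replicate 3 at 0:00 as OE runs against its OsPRR37 level, given above. The interaction was also lost on leaving out any of 11 single libraries, with adjusted p values between 0.0503 and 0.0663. These were OE replicate 2 at 16:00 and 0:00, OE replicate 3 at 4:00, 16:00 and 0:00, GL replicate 1 at 4:00, 16:00 and 0:00, GL replicate 2 at 16:00, and GL replicate 3 at 16:00 and 0:00. As a share of the summed cryptochrome FPKM, OsCRY2 made up 18.5% in OE and 17.4% in GL, a difference of 1.07 percentage points that did not pass the permutation test (p = 0.164, adjusted p = 0.164); without OE replicate 1 at 16:00 it was 1.501 points with an adjusted p of 0.0390.

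OsCRY1b did not pass the averaged test, with a log2 difference of -0.42 ± 0.35 (SE; 95% interval -1.11 to 0.27, adjusted p = 0.410). Without GL replicate 3 at 8:00 the difference was 0.56 (adjusted p = 0.304), and with limma on log2(FPKM + 0.1) it was 0.02, so no direction can be read from it. Its OE libraries stood below its GL libraries at 2 of 6 hours, beside 19.8% of comparisons without overlap over all genes and hours. At 4:00 they had 0.830, 0.561 and 0.487 CPM in OE against 1.12, 2.29 and 1.40 CPM in GL, and at 0:00 they had 0.407, 1.195 and 0.370 CPM in OE against 2.57, 1.69 and 2.20 CPM in GL. These group sums are 28 counts in OE against 52 counts in GL at 4:00, and 31 counts in OE against 90 counts in GL at 0:00, and neither hour was called (adjusted p = 0.439 at 4:00 and 0.400 at 0:00).

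**Figure D5:**
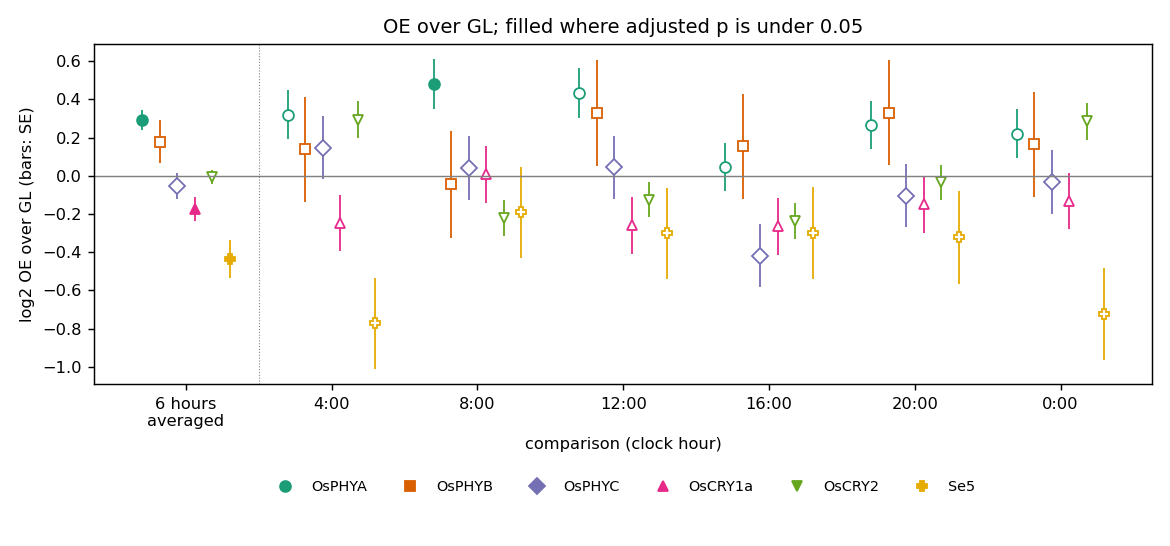
Log2 OE over GL of 6 genes, averaged over the hours and at each clock hour, with standard errors as bars; filled symbols have an adjusted p under 0.05 (OsCRY1b is left out for its low counts). OsPHYA lies above 0 and Se5 below 0 at all 6 hours, and OsCRY2 lies above 0 at 4:00 and 0:00 and below it at 8:00 and 16:00.

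Within each genotype some of the genes varied together over the 18 libraries, which is a description of shared day patterns and not a test. OsPHYB and OsPHYC had a Pearson correlation of log2 CPM of 0.94 over the OE libraries and 0.84 over the GL libraries, and OsCRY1a and Se5 had 0.79 in OE and 0.83 in GL. Se5 and OsPHYC ran opposite, with -0.72 in OE and -0.91 in GL. OsCRY2 was tied to none of these as closely, with 0.16 in OE and 0.01 in GL to Se5 and -0.48 in OE and -0.55 in GL to OsPHYB. Once the mean of each group of 3 was removed, OsCRY1a and Se5 still had 0.82 over the 36 libraries, OsPHYB and OsPHYC 0.77, and Se5 and OsPHYC turned to 0.53. The libraries share the replicate numbers named above and the scaling, whose part was not tested. OsCRY1a was, like Se5, higher in replicate 1 than in replicates 2 and 3, at 6 of 6 hours in OE and 5 of 6 in GL. The 3 secondary wall cellulose synthases stood higher in replicate 1 too, at 6 of 6 hours in each genotype, by average log2 values of 1.31 to 2.00 in OE and 1.23 to 1.75 in GL, and their part in the offset of these genes was not tested. OsPHYA and OsCRY2 had smaller offsets, with average log2 values of 0.07 in OE and -0.09 in GL for OsPHYA, and 0.02 in OE and -0.04 in GL for OsCRY2.

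By the same measure the likest other genes over all 36 libraries were OS11G0603200 (0.992) and OS01G0235100 (0.991) for Se5, and OS01G0767600 (0.983) and OS03G0284100 (0.973) for OsCRY2. For OsCRY1a they were OS06G0608600 (0.963) and OS02G0593500 (0.957). For OsPHYB they were OS01G0769200 (0.964) and OS01G0857500 (0.946), for OsPHYC OS11G0610900 (0.938) and OS07G0213300 (0.930), and for OsPHYA OS02G0195500 (0.899) and OS01G0923700 (0.898). For OsCRY1b the highest were 0.631 with OS01G0195200 and 0.571 with OS03G0270200, the loosest of the 7. No name is paired with these identifiers in the files.

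Around the receptors, several genes that act downstream of them in light signalling were lower in OE when averaged over the day. Of 11 tested genes of this list, 4 were called in the averaged test, each lower in OE, beside 26% of all genes called and 12% called lower, and the list's median log2 difference was -0.16. OsbZIP48, a relative of the light-growth factor HY5, had a log2 difference of -1.10 ± 0.14 (SE, adjusted p = 1.01e-06). Of the phytochrome-interacting factor-like genes, OsPIL13 had -0.53 ± 0.07 (SE, adjusted p = 3.35e-06) and OsPIL15 had -0.44 ± 0.07 (SE, adjusted p = 3.14e-05). OsDET1, named for a repressor of light responses in Arabidopsis, had -0.25 ± 0.07 (SE, adjusted p = 0.00880), a call that was lost with the random block. The remaining 7, among them the COP1 homologue PPS with a log2 difference of -0.03, were not called. Of this list, the genes called at single hours were lower in OE at 4:00 (1 gene), 8:00 (4), 12:00 (3) and 16:00 (2). At 20:00 0 were called, and at 0:00 1 was called, higher in OE. Over all genes 4.48% were called at 4:00, 3.31% at 8:00, 2.02% at 12:00, 7.91% at 16:00, 2.51% at 20:00 and 2.33% at 0:00. The gene called at 0:00 was OsPIL14, with a log2 difference of 0.49 ± 0.12 (SE, adjusted p = 0.0176). It was among those called lower at 8:00, with -0.42 ± 0.12 (SE, adjusted p = 0.0429).

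Of 6 other photoreceptors tested, 2 were called in the averaged test, both lower in OE, beside the same 26% called and 12% called lower, with a list median log2 difference of -0.10. Both are relatives of the ultraviolet-B receptor: OsUVR8a had a log2 difference of -0.21 ± 0.07 (SE, adjusted p = 0.0268) and OsUVR8b had -0.19 ± 0.06 (SE, adjusted p = 0.0294). Neither was called on library totals or with the random block. OsUVR8a was also not called with GL replicate 3 at 0:00 grouped as OE, against that library's OsPRR37 level. Leaving out GL replicate 3 at 4:00 or at 16:00 ended the OsUVR8a call (adjusted p at most 0.0515), and leaving out OE replicate 2 at 12:00 or 16:00, OE replicate 3 at 16:00, or GL replicate 1 at 16:00 or 20:00 ended the OsUVR8b call (adjusted p at most 0.0511). The phototropin OsPHOT2 had 0.01 and the clock-linked flavin receptors OsZTL1, OsZTL2 and OsFKF1 had -0.07, -0.13 and 0.42, none of them called.

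Of the other genes of heme and bilin synthesis, 1 of 3 was called, a share near the 26% of all genes: the ferrochelatase OsFC2, which makes heme, with a log2 difference of -0.13 ± 0.04 (SE, adjusted p = 0.0225), a call that was lost on library totals and with the random block. OsHO2, a second gene of the heme oxygenase family, had -0.17 ± 0.09 (SE, adjusted p = 0.142). OsHY2, the bilin reductase that completes the phytochrome chromophore, had 0.11 ± 0.06 (SE, adjusted p = 0.162).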

How the data were processed

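Leaf RNA was sequenced in 36 libraries, 3 per genotype and hour; the labels call them biological repeats, and if they are not separate plants, p-values measure technical spread. The authors used TopHat2, Cufflinks and Cuffdiff with build IRGSP-1.0, per the submitters' processing notes; no version is given in the sources used here. Libraries were not strand-marked, per the labels' protocols. The deposited count column holds estimated counts as whole numbers, taken as they stand; the deposited FPKM values were used for levels between genes, and their sums differ 2.27 times between libraries. The deposited normalised signal was not used.

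Counts were tested with edgeR 4.0.16 in R 4.3.3: filterByExpr on 12 groups (minimum count 10, minimum total 15; 21772 genes kept), TMM, and a quasi-likelihood F test in a group-means model, with Benjamini-Hochberg adjustment over all genes tested and a threshold of 0.05. CPM are on TMM-scaled totals. A 24-h harmonic gave peak hours and ranges. Alternatives used limma 3.58.1 and DESeq2 1.42.0. The tests were tested on simulated data first.

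Members, gene lists, tests and alternatives were chosen with earlier results of these data known. The text names all 7 members, OsPRR37, each list gene called in the averaged test and the 2 likest genes per member; OsHO2, OsHY2, OsPHOT2, OsZTL1, OsZTL2, OsFKF1, OsPIL12, OsPIL14 and PPS were named after their values were seen. A reference table of another assembly placed 4 member names on the chromosome of their identifier and held no name for 3; 4 list names it placed elsewhere were dropped.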

Additional observations from a re-analysis of the deposited data

Results flagged for a closer look

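For OsCRY2, 3 of the 11 light signalling genes and OsPRR37, the OE over GL difference changed over the clock hours by the interaction test of edgeR, beside 1.88% of all genes called. OsCRY2 had an adjusted p of 0.03131, with OE above GL at 4:00 and 0:00 and below it at 8:00 and 16:00. OsPIL13 had an adjusted p of 0.002129, with log2 differences from 0.22 ± 0.18 at 0:00 to -1.49 ± 0.19 at 16:00 (SE). OsPIL14 had an adjusted p of 0.004169, with log2 differences from 0.49 ± 0.12 at 0:00 to -0.42 ± 0.12 at 8:00 (SE). OsPIL12 had an adjusted p of 0.03319, with log2 differences from 0.61 ± 0.18 at 0:00 to -0.39 ± 0.17 at 12:00 (SE). OsPRR37 itself had an adjusted p of 1.668e-18; its level ran from 842 to 1547 CPM over the hourly means of OE and from 2.17 to 456 CPM over those of GL. With 3 libraries a group, no gap test for a single library within its group was run.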

How the results depend on the processing

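Of the 7 genes, 3 were called in the averaged test, and between 2 and 4 over 11 alternatives. OsPHYA and Se5 were called in each, with log2 differences of 0.24 to 0.39 and -0.46 to -0.34. Over these alternatives the adjusted p was at most 0.0130 for OsPHYA and 0.00979 for Se5. OsCRY1a was lost on library totals and with the random block, while OsPHYC came in with replicates 2 and 3 only and OsPHYB on library totals. Leaving out single libraries gave 2 to 3 calls. The interaction count of 1 became 0 with no filter on low counts, with replicates 2 and 3 only, with GL replicate 3 at 0:00 grouped as OE, on library totals, and in 11 of the fits that left out a library, so it ran from 0 to 1. Calls at single hours, 1 in all, became 0 with no filter or with that library as OE, 2 with limma on log2(FPKM + 1) and with the random block, 4 with DESeq2, with limma on log2(FPKM + 0.1) and with the replicate block, and 5 with replicates 2 and 3 only and on library totals, and ran from 0 to 3 on leaving out a library. Se5 at 4:00 accounts for 1 of these calls in 7 of the alternatives. The OsCRY2 share difference ran from 0.631 to 1.501 points on leaving out a library. The fit with GL replicate 3 at 0:00 as OE goes against that library's OsPRR37 level, which was near that of GL replicates 1 and 2. OsCRY1b could not be fitted under the stricter filter. The cause of these changes was not tested.

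Replicate numbers were not taken to pair libraries, so the main fit has no term for an offset that same-numbered libraries share. Deviations of same-numbered OE and GL libraries of an hour correlated at 0.0638 to 0.521, with a median of 0.2155. The value was over 0.1 in 16 of 18 pairs, among them all 6 of replicate 1. Of the OE libraries, 13 correlated best with their own number. With the replicate block the averaged calls over all genes were 7153, beside 5662 without it, and the members called were the same in number; Se5 was then called at 4:00 (adjusted p = 1.58e-04) and 0:00 (adjusted p = 3.72e-04), and OsPHYC at 16:00. With replicates 2 and 3 only, 6796 genes were called, and with the random block, chosen after seeing the data, 2209. That block fit estimated a correlation of 0.195 among libraries that share genotype and replicate number. On library totals, also chosen after seeing the data, 5918 were called, 4523 higher and 1395 lower in OE against 3052 higher and 2610 lower with TMM, and the median of all genes moved to 0.15 at 4:00 and 0.19 at 12:00 on the log2 scale. Depth limits OsCRY1b most, with 378 counts in all libraries.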
